A study of Mus musculus with 8 samples.

Results

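Solute carriers (SLC) are the membrane proteins that move amino acids, sugars, metals, ions, nucleotides and vitamins across membranes without splitting ATP themselves. To describe how NF-YA binds at their genes, all peaks were taken that the authors had assigned to a protein-coding gene whose symbol starts with Slc, a number and a letter, or with Slco. These were 67 peaks of 53 genes, out of 7196 peaks in all and 385 such genes in the GENCODE M21 annotation. Carriers that go under other symbols were not members, whereas *Slc9a3r1*, which encodes the scaffold protein NHERF1 and not a carrier, was included by its symbol. The members were placed in 7 groups by the substrate of their family.

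Binding was assayed with CUT&RUN, in which a nuclease guided by an antibody against NF-YA releases the DNA around the antigen for sequencing. The cells were skeletal muscle stem cells (MuSCs) of C57BL/6 mice, grown in culture and labelled activated/proliferating. Both genotypes were represented by 2 NF-YA libraries. In Taf4asKO cells, floxed *Taf4a* alleles had been deleted in adult mice by a tamoxifen-inducible Cre expressed from *Pax7*, a gene of MuSCs. The control libraries are titled WT and labelled Control, and the study's methods describe its controls as littermates with the same floxed alleles, with or without the Cre. Whether the control mice behind these libraries received tamoxifen is not given in the sources used here, so its part in a difference was not tested. The labels do not state how many mice or cultures stand behind a library, so the spread between libraries may be technical. All values are bulk values, in which fewer bound cells and less binding per cell cannot be told apart. Of 7 MuSC marker genes *Cdh15* and *Myod1* had an assigned peak, and of 7 marker genes of other cells *Acta2* did, but a peak is no measure of expression and does not check the cell type.

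NF-Y is a trimer of NF-YA, NF-YB and NF-YC that recognises the pentamer CCAAT, and its sites typically lie a short way upstream of the start of transcription. The Slc25 family sits mostly in the inner mitochondrial membrane and supplies the matrix with nucleotides, cofactors and metabolites. Plasma membrane carriers of the Slc2, Slc7 and Slc1 families bring glucose and amino acids into dividing cells, and Slc30 and Slc39 carriers move zinc in opposite directions. MuSCs leave quiescence and grow when they are activated, which draws on these carriers.

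The CCAAT nearest the peak centre is shown first for the peaks on which the results below turn, in capitals, as CCAAT or its reverse complement ATTGG, on the strand of the gene. Each sequence holds 40 bases on either side of the middle of that pentamer, or 12 bases on either side of the pentamer where the longer stretch would have lain in an annotated untranslated region. The first set belongs to the mitochondrial family, with the coenzyme A carrier *Slc25a42*, the iron carrier *Slc25a28* (mitoferrin 2) and *Slc25a47*, whose peak is shared with the start of *Slc25a29*.
Slc25a42: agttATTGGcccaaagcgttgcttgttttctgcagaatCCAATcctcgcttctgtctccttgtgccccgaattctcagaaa
Slc25a28: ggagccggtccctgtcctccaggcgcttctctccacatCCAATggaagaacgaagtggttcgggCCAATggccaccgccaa
Slc25a47: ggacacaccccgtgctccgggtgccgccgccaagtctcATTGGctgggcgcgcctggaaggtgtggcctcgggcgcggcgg
These stretches lie at chr8:70212609-70212689, chr19:43675158-43675238 and chr12:108835930-108836010 of GRCm38, the first 2 on the minus strand and the last on the plus strand. The next set holds amino acid and sugar carriers, namely the neutral amino acid carriers *Slc43a2* (LAT4) and *Slc1a4* (ASCT1) and the glucose transporters *Slc2a8*, *Slc2a6*, *Slc2a4* and *Slc2a1*.
Slc43a2: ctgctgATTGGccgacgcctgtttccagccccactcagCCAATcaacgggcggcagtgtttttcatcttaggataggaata
Slc1a4: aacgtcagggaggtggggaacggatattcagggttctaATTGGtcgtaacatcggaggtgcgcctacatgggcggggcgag
Slc2a8: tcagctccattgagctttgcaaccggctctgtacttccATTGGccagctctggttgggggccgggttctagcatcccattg
Slc2a6: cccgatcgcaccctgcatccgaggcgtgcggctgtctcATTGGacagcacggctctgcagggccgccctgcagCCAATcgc
Slc2a4: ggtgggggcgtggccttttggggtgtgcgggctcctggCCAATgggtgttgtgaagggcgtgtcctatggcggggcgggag
Slc2a1: tacaccccagaaCCAATggcggcggtcct
They lie at chr11:75531594-75531674 (plus strand), chr11:20332769-20332849 (minus), chr2:32982080-32982160 (minus), chr2:27028003-27028083 (minus), chr11:69948214-69948294 (minus) and chr4:119108745-119108773 (plus). The last set holds the strongest peak of the metal group, *Slc39a3*, the strongest CCAAT-holding peak of the nucleotide sugar group, *Slc35a2*, the strongest peak of a true carrier in the inorganic ion group, *Slc4a7*, and the thiamine carrier *Slc19a2* and the lysosomal carrier *Slc46a3* of the other organic group.
Slc39a3: cactgacagtgtCCAATagacgctgatgt
Slc35a2: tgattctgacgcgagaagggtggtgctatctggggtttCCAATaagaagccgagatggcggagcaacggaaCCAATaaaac
Slc4a7: tccgagctgctgATTGGctgatacgaatg
Slc19a2: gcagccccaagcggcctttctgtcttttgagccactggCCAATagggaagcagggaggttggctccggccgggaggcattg
Slc46a3: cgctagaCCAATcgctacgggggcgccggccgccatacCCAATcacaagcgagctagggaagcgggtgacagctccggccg
These lie at chr10:81037327-81037355 (minus), chrX:7883921-7884001 (plus), chr14:14702817-14702845 (plus), chr1:164248798-164248878 (plus) and chr5:147894835-147894915 (minus).

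Peaks were present at 53 of 385 solute carrier genes (13.8%, 95% Wilson interval 10.7 to 17.6), against 3144 of 21566 other protein-coding genes (14.6%, 14.1 to 15.1). A peak within 1000 bases of the start was present at 39 carrier genes (10.1%) and at 2317 of the others (10.7%). The groups differed in this share. Of the 47 Slc25 genes 16 had a peak (34%, 22.2 to 48.3), and of the 29 glucose and sugar carriers 7 did (24.1%, 12.2 to 42.1). The amino acid carriers, with 5 of 67 genes (7.46%, 3.23 to 16.3), and the carriers of other organic molecules, with 9 of 115 (7.83%, 4.17 to 14.2), lay lower. The metal carriers had 3 of 32 (9.38%), the nucleotide sugar and nucleoside carriers 4 of 35 (11.4%) and the inorganic ion and pH carriers 9 of 60 (15.0%). The groups were formed with earlier results of these data known, and these shares were not tested against each other. Whether a gene is active in MuSCs was not measured by these libraries, and its part in the shares was not tested.

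**Figure D1:**
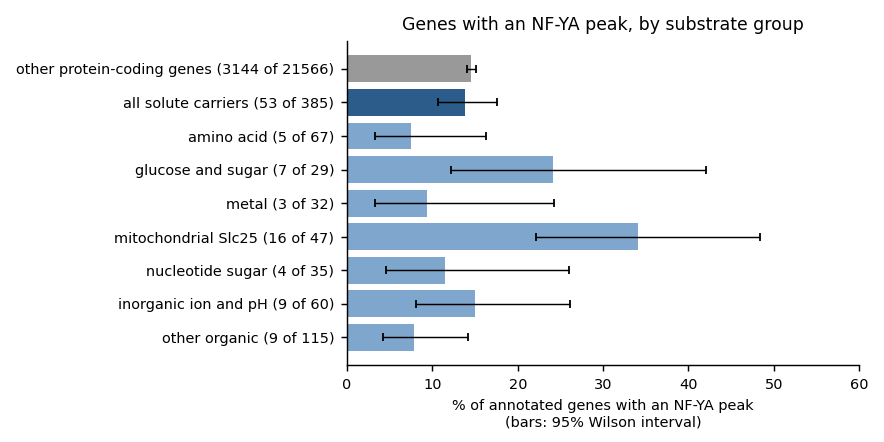
Share of annotated genes with an assigned NF-YA peak (x axis, %) for the 7 substrate groups, for all solute carriers and for all other protein-coding genes, with 95% Wilson intervals. The Slc25 family has the highest share, 16 of 47 genes (34%), and the amino acid group the lowest, 5 of 67 (7.46%).

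Peaks were present at 53 of all 385 carrier genes, and of 32 carriers that were listed by name 9 had a peak. These were *Slc2a1*, *Slc2a4*, *Slc7a5*, *Slc7a11*, *Slc1a4*, *Slc38a1*, *Slc30a1*, *Slc25a28* and *Slc20a1*. No peak was assigned to the other listed genes, among them *Slc2a3*, *Slc3a2* (the heavy chain that partners LAT1), *Slc1a5*, *Slc38a2*, *Slc16a1* and the adenine nucleotide carriers *Slc25a4* and *Slc25a5*. Within the mitochondrial iron carriers a peak was thus assigned to *Slc25a28* but not to its paralog *Slc25a37*.

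The carrier peaks fell into 28 with a centre within 200 bases of the assigned start, 15 at more than 200 and up to 1000 bases and 24 beyond 1000 bases. The mean value of a peak, in normalised reads over the 4 libraries, had a median of 42.0 (range 12.8 to 156) in the nearest class, of 38.2 (4.00 to 605.5) in the middle class and of 8.75 (2.50 to 71.2) in the far class. Peaks of other protein-coding genes followed the same order, with medians of 61, 36.2 and 13.8. All 24 far peaks but *Slc9a4* (6872 bases downstream, mean 71.2) and *Slc27a1* (1593 bases downstream, mean 46.0) had means of at most 26.2. Of the 28 nearest peaks 22 had their centre upstream of the start. By place, 45 of the 67 peaks lay within 1000 bases of an annotated gene start, 14 in introns, 7 between genes and 1 in a UTR.

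All 28 nearest peaks held CCAAT or its reverse complement in their central 200 bases (100%, 87.9 to 100), against 1729 of 1859 peaks at the same distance from other protein-coding genes (93.0%, 91.8 to 94.1). The share was 11 of 15 in the middle class (73.3%, other genes 74.7%) and 14 of 24 in the far class (58.3%, 38.8 to 75.5, other genes 72.5%). Windows of the same length 1000 bases to either side of the carrier peaks held the pentamer in 27 of 134 cases (20.1%). Over all 67 peaks the share was 79.1% (67.9 to 87.1), against 83.0% of 3770 peaks of other protein-coding genes. In the nearest class the pentamer closest to the peak centre lay at a median of 60 bases upstream of the start (quartiles 81.0 and 30.2 upstream), and in 20 of 28 peaks between 120 and 20 bases upstream. For other genes at that distance the median was 64 bases upstream. It read CCAAT on the strand of the gene in 18 of the 28.

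**Figure D2:**
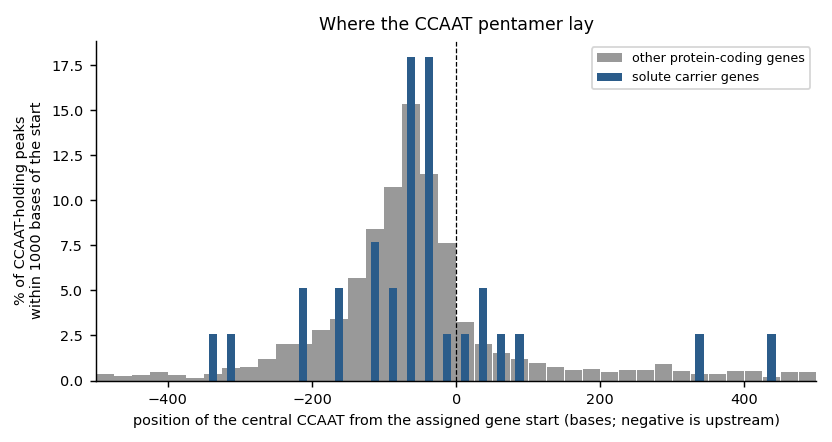
Position of the CCAAT closest to the peak centre, in bases from the assigned gene start (x axis, negative upstream, shown to 500 bases), as a percentage of the peaks within 1000 bases of a start that hold one, in bins of 25 bases. Both the solute carrier genes (blue) and the other protein-coding genes (grey) have their fullest bins within 120 bases upstream of the start.

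A further CCAAT was common near starts. It was present in 15 of the 28 nearest peaks (53.6%, other genes 54.7%) and in 5 of 24 far peaks (20.8%, other genes 31.5%). Of the 26 carrier peaks with at least 2 pentamers, the closest pair started 24 to 40 bases apart in 10, against 669 of 1684 peaks of other genes. The pair was 34 bases apart in *Slc25a42*, 26 in *Slc25a28*, 32 in *Slc43a2*, 35 in *Slc2a6*, 33 in *Slc35a2* and 31 in *Slc46a3*, as can be read from the sequences above. The strongest carrier peak, *Slc25a42*, and the strongest glucose transporter peak, *Slc2a8*, each held 4 pentamers in the central 200 bases, where words that overlap on the 2 strands count separately. A GC box, the word GGGCGG on either strand, was found in 18 of the 28 nearest peaks (64.3%, other genes 60.1%) and in 3 of 24 far peaks (12.5%, other genes 19.5%).

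**Figure D3:**
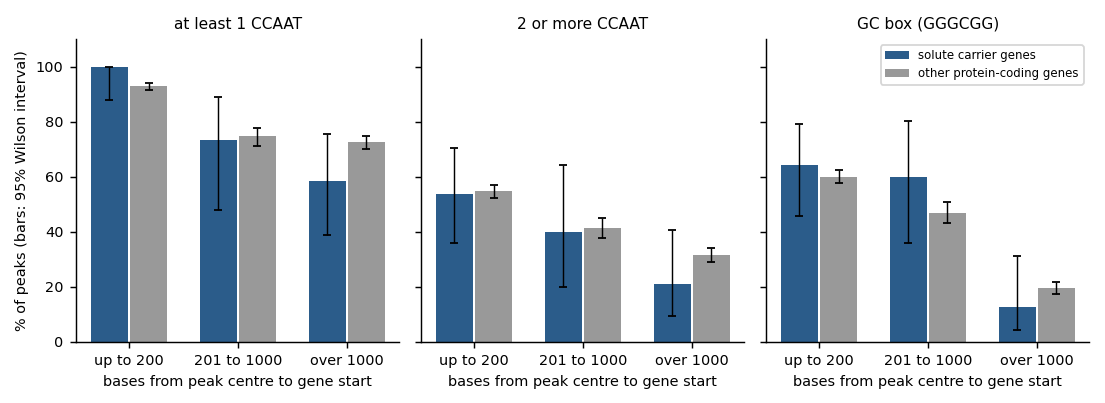
Share of peaks (y axis, %) with at least 1 CCAAT, with 2 or more, and with a GC box in the central 200 bases, by distance of the peak centre from the assigned start, with 95% Wilson intervals. Solute carrier peaks (blue) and other protein-coding peaks (grey) both lose these words with distance, from 100% to 58.3% of carrier peaks for CCAAT.

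Words of nutrient and metal response elements were also searched. The amino acid response word TGATGCAA or TGATGAAA, read by ATF4 and its partners, was present on either strand in 1 of 67 carrier peaks and in 37 of 3770 peaks of other genes (0.981%). The 1 carrier peak was that of *Slc1a4*, which carries it in reverse complement, in capitals below, next to its start at chr11:20332699-20332728 (minus strand).
Slc1a4: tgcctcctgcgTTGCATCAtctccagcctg
The metal response word, TGCACNC or TGCGCNC, was present in 7 of 67 carrier peaks (10.4%) and in 17.1% of those of other genes, and in 0 of the 3 peaks of zinc carriers. A match is a description of these letters only.

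Several peaks that counted as far from the start of the gene lay near another annotated start of it. The peak of *Slc26a6*, an anion exchanger, was assigned at 725 bases but centred 29 bases upstream of another transcript. The second *Slc43a2* peak, at 353 bases, was 66 bases upstream of another transcript, and that of *Slc35f5*, at 293 bases, was 128 bases upstream of one. The peak of the fatty acid carrier *Slc27a1*, at 1593 bases, was 181 bases upstream of a further start, and that of the bicarbonate carrier *Slc4a7*, at 531 bases, was 216 bases upstream of one. The peak of *Slc35f6*, at 8368 bases, lay 204 bases downstream of another start. These peaks would move towards the nearest class if every transcript were counted, so the distance classes depend on which start is used.

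Some peaks lay between 2 genes. The *Slc25a47* peak was centred 107 bases from the start of *Slc25a29*, the mitochondrial carrier of basic amino acids on the opposite strand, and the peak of *Slc25a27* (UCP4) was 168 bases from that of *Cyp39a1*. The *Slc25a28* and *Slc45a4* peaks lay 66 and 20 bases from the start of a gene on the opposite strand that is annotated as a processed transcript. The *Slc9a4* peak, which was assigned at 6872 bases, lay 112 bases from the start of *Gm37435*, on the opposite strand, which is annotated only as to be experimentally tested (TEC). Which gene such a peak belongs to was not tested.

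To determine whether binding at these genes differed without TAF4A, the values of both genotypes were compared with limma on log2(value + 1) over all 4746 peaks whose mean value reached 10. This minimum was reached by 52 of the 67 carrier peaks, and 14 of the 15 left out lay beyond 1000 bases. The left-out peaks had means of 2.5 to 9.5, and 4 of them had a value of 0 in a library. Among the 5 largest differences in either direction, some peaks reached the minimum only through the genotype where they were high. These were *Slc7a11*, *Slc25a23* and *Slco1a6*, with control means of 8.5, 8.5 and 8, and *Slc17a4*, with a Taf4asKO mean of 8. Of the 52 tested peaks 0 had an adjusted p under 0.05, where 0.948% of all tested peaks did. At an unadjusted p under 0.05 there were 6, with 2 higher and 4 lower in Taf4asKO, against 17.9% of all tested peaks. The median log2 difference, Taf4asKO minus control, was 0.09 over the 52 carrier peaks and -0.04 over all tested peaks. Without Taf4asKO replicate 2 the carrier median turned to -0.07, with -0.10 over all tested peaks. When the libraries were instead centred on the peaks averaging 100 or more, these medians were 0.32 and 0.18, so that the whole set moved up by 0.22. The libraries held 351696 and 111265 reads in peaks in the controls and 735203 and 505241 in Taf4asKO, so reads in peaks and genotype cannot be told apart. One read was worth 3.26 in control replicate 2 and 0.431 in Taf4asKO replicate 1, so low values are coarse in the former. When single libraries were left out, the log2 difference turned or moved by over 1.5 times at 39 of the 52 carrier peaks, so most sizes given below depend on which libraries are kept.

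All Taf4asKO values lay above all control values at 18 of the 52 carrier peaks, where this held for 19.3% of all tested peaks, and below them at 9, where this held for 28.6%. By fold alone, with a mean above 10 and a ratio of group means beyond 2, 0 of 52 carrier peaks were higher in Taf4asKO (4.29% of all such peaks) and 1 was lower (3.13%). This was *Slc17a4*, an organic anion carrier, with 13 and 23 in the controls and 11 and 5 in Taf4asKO. The direction depended on the scaling. Equal totals gave 2 higher (*Slc7a11* and *Slc25a23*) and 1 lower, where 322 of all 4730 such peaks were higher and 99 lower. Centring on the strong peaks gave 4 higher (*Slc7a11*, *Slc25a23*, *Slco1a6* and *Slc22a4*) and 0 lower, without *Slc17a4*. In that setting 401 of all 4741 such peaks were higher and 79 lower. *Slc17a4* was also not counted when control replicate 2 or Taf4asKO replicate 2 was left out.

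**Figure D4:**
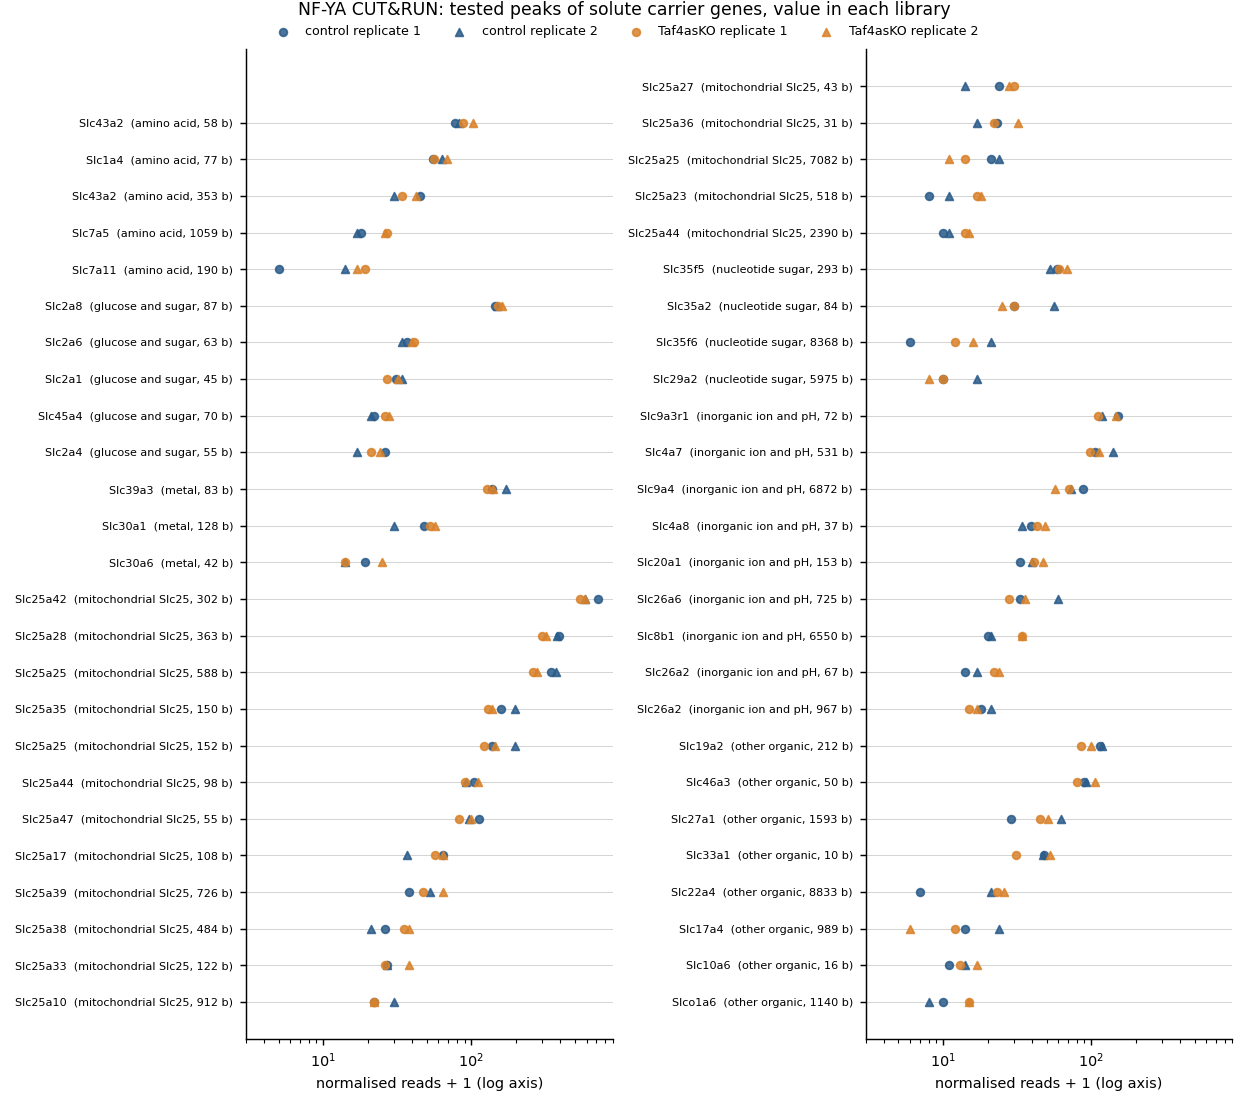
Normalised reads + 1 (x axis, log scale) in each of the 4 NF-YA libraries for 51 of the 52 tested peaks of solute carrier genes, with the substrate group and the distance to the assigned start. Circles are replicate 1 and triangles replicate 2, with control in blue and Taf4asKO in orange; *Slc25a42* lies highest, between 539 and 711, and the genotypes of most peaks overlap or lie close together.

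The mitochondrial Slc25 family had 20 peaks of 16 genes, 18 of them tested, and held the strongest members. *Slc25a42* had 711 and 584 normalised reads in the controls and 539 and 588 in Taf4asKO, with a log2 difference of -0.19 ± 0.12 (SE, adjusted p = 0.426). This was -0.053 without control replicate 1 and -0.336 without control replicate 2. *Slc25a28* had 390 and 378 against 298 and 319 (-0.32 ± 0.12, adjusted p = 0.218). Both Taf4asKO values lay below both control values for *Slc25a28* but not for *Slc25a42*. *Slc25a25*, an ATP-magnesium and phosphate carrier gated by calcium, had a pair of peaks near its start. The one at 588 bases upstream had 344 and 372 against 260 and 277 (-0.41 ± 0.13), which gave the lowest adjusted p of all carrier peaks, 0.145. The one at 152 bases upstream had 136 and 196 against 121 and 144 (-0.30 ± 0.20, adjusted p = 0.437). A weak peak 7082 bases upstream of the same gene, with no CCAAT in its centre, had 20 and 23 against 13 and 10 (-0.86 ± 0.36, adjusted p = 0.253). All 3 *Slc25a25* peaks had a negative difference and none passed the test. That of the peak at 152 bases rested largely on the second control library, since it was -0.043 without control replicate 2 and -0.567 without control replicate 1.

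*Slc25a35* had 158 and 196 in the controls and 129 and 136 in Taf4asKO. All its Taf4asKO values lay below all control values, with a log2 difference of -0.41 ± 0.16 (adjusted p = 0.236). Without control replicate 2 that difference was -0.253, and without control replicate 1 it was -0.562. *Slc25a44*, a carrier of branched-chain amino acids, had 104 and 91 against 90 and 110, and *Slc25a47* had 111 and 95 against 81 and 99, so that the genotypes overlapped. *Slc25a38*, the mitochondrial glycine carrier of haem synthesis, had 25 and 20 against 34 and 37 (0.64 ± 0.27, adjusted p = 0.256), with no overlap. *Slc25a23*, the relative of *Slc25a25*, had 7 and 10 against 16 and 17 (0.90 ± 0.42, adjusted p = 0.298).

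The sign of the difference in this family went with the level of the peak. All 6 Slc25 peaks averaging 100 or more had a negative log2 difference (median -0.31), except that *Slc25a42* turned to 0.04 when the libraries were centred on strong peaks. Of the 12 tested ones below 100, 9 had a positive difference (median 0.30). Over all peaks 822 of 971 averaging 100 or more were negative (median -0.22). Of all peaks with a mean of 20 to 100, 1196 were positive and 1161 negative (median 0.0056), and 845 of 1417 with a mean of 10 to 20 were positive (median 0.16). Other tested members, *Slc25a17* (a peroxisomal carrier), *Slc25a39*, *Slc25a33*, *Slc25a36*, *Slc25a10*, *Slc25a27* and the upstream *Slc25a44* peak, had log2 differences of -0.22 to 0.66 and adjusted p of 0.336 to 0.720. *Slc25a43* and the second *Slc25a35* peak were below the minimum.

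**Figure D5:**
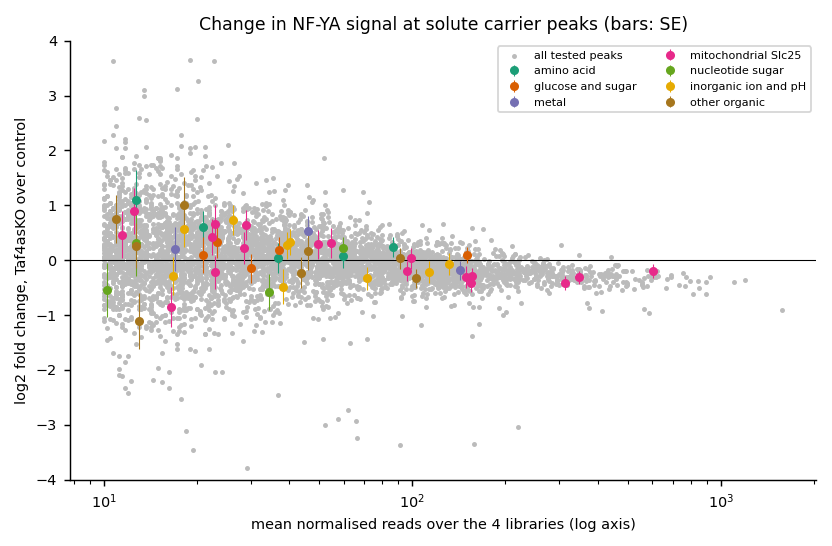
Log2 fold change of NF-YA signal, Taf4asKO over control (y axis, on the log2(value + 1) scale), against the mean of the 4 libraries (x axis, log scale) for all tested peaks (grey) and for the 52 solute carrier peaks by substrate group, with the SE of each carrier peak. The 11 carrier peaks averaging 100 or more lie between -0.41 and 0.09, and the spread widens towards low means for carriers and all peaks alike.

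The amino acid carriers had 9 peaks of 5 genes. *Slc43a2* had 77 and 82 in the controls and 87 and 101 in Taf4asKO at its start (0.24 ± 0.18, adjusted p = 0.510, and 0.129 without Taf4asKO replicate 2). Its second peak had 44 and 29 against 33 and 41. *Slc1a4* had 54 and 62 against 55 and 67, which overlapped. *Slc7a5*, the light chain of the leucine carrier LAT1, had no peak at its start. Its 2 peaks lay in an intron, at 1059 and 5539 bases, without CCAAT in their centres, and the first had 17 and 16 against 26 and 25 (0.60 ± 0.30, adjusted p = 0.327). *Slc7a11*, the cystine carrier xCT, had 4 and 13 against 18 and 16 at 190 bases upstream (1.10 ± 0.54, adjusted p = 0.311). This was the largest positive difference among the tested carrier peaks with all libraries in the fit. The peak reached the minimum of 10 only through Taf4asKO, since its control mean was 8.5. Its difference was 0.36 without control replicate 1 and 1.85 without control replicate 2. In the former case *Slc25a27* (1.05) and *Slco1a6* (0.91), among others, were higher. All 5 tested peaks of the group had a positive sign (median 0.24), in 3 of them without overlap. Of all 2358 peaks with a mean of 20 to 100, 1196 were positive and 478 had both Taf4asKO values above control. Of all 1417 with a mean of 10 to 20, 845 were positive and 410 had both values above. The signs of *Slc1a4* and the second *Slc43a2* peak turned negative when single libraries were left out. That of the second *Slc43a2* peak also turned when values were weighted by their reads. Both *Slc38a1* peaks, with 7 and 0 against 15 and 12 and with 6 and 3 against 9 and 5, were below the minimum.

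The glucose and sugar carriers had 9 peaks of 7 genes. *Slc2a8* (GLUT8) led them with 144 and 147 in the controls and 151 and 160 in Taf4asKO (0.09 ± 0.15, adjusted p = 0.761, and 0.053 without Taf4asKO replicate 2). It was the only one of the 11 carrier peaks averaging 100 or more whose difference was positive on the deposited scale. *Slc2a6* (GLUT6) had 36 and 33 against 40 and 39, and *Slc45a4* had 21 and 20 against 25 and 27. In all 3 the Taf4asKO values lay above the control values, which held for 19.3% of all tested peaks. *Slc2a1*, the basal glucose transporter GLUT1, had 30 and 33 against 26 and 31, with its CCAAT 48 bases downstream of the assigned start. *Slc2a4*, the insulin-responsive GLUT4 of muscle, had 25 and 16 against 20 and 23. Adjusted p-values of the 5 tested peaks were 0.563 to 0.903. The far peaks of *Slc37a2*, *Slc45a4* and *Slc2a7* and a second one of *Slc2a8* had means of 3.75 to 8.25.

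The metal group consisted of 3 zinc carriers, each with a peak within 200 bases of its start. *Slc39a3*, the zinc importer ZIP3, had 136 and 170 in the controls and 127 and 140 in Taf4asKO (-0.19 ± 0.17, adjusted p = 0.578), which became -0.028 without control replicate 2 and -0.348 without control replicate 1. *Slc30a1*, the zinc exporter ZnT1 of the plasma membrane, had 47 and 29 against 52 and 56 (0.53 ± 0.27, adjusted p = 0.322). Its difference was 0.874 without control replicate 1 and 0.195 without control replicate 2. *Slc30a6*, a zinc carrier of the Golgi, had 18 and 13 against 13 and 24. Only *Slc30a1* had no overlap between genotypes.

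The inorganic ion and pH group had 12 peaks of 9 genes. *Slc9a3r1* had 151 and 117 in the controls and 110 and 147 in Taf4asKO, and *Slc4a7* had 105 and 140 against 97 and 112, so that both overlapped. *Slc8b1*, the sodium and calcium exchanger of mitochondria, had 19 and 20 against 33 and 33 in an intron 6550 bases from the start (0.73 ± 0.28, adjusted p = 0.211). *Slc9a4*, a sodium and proton exchanger, had 87 and 72 against 70 and 56 (-0.33 ± 0.21, adjusted p = 0.420), and the difference ranged from -0.492 to -0.175 when single libraries were left out. *Slc20a1*, a phosphate importer, had 32 and 39 against 40 and 46, and *Slc4a8* had 38 and 33 against 42 and 48. The sulphate carrier *Slc26a2* had 13 and 16 against 21 and 23 at its start and 17 and 20 against 14 and 16 at its second peak, 967 bases upstream, so that the signs of its peaks were opposite. *Slc26a6* had 32 and 59 against 27 and 35.

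The nucleotide sugar and nucleoside carriers had 4 peaks of 4 genes, all tested. *Slc35f5* had 58 and 52 in the controls and 60 and 68 in Taf4asKO, with no CCAAT in its centre or elsewhere in the peak. *Slc35a2*, which brings UDP-galactose into the Golgi, had 29 and 55 against 29 and 24 (-0.58 ± 0.33, adjusted p = 0.366), so that the difference rested largely on control replicate 2. Leaving out the second control library gave -0.132 for this peak, against -1.03 without the first. *Slc35f6* had 5 and 20 against 11 and 15, and *Slc29a2*, a nucleoside carrier, had 9 and 16 against 9 and 7.

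The carriers of monocarboxylates, lipids, vitamins and other organic molecules had 10 peaks of 9 genes. *Slc19a2*, the thiamine carrier of the plasma membrane, had 113 and 117 in the controls and 84 and 99 in Taf4asKO (-0.33 ± 0.18, adjusted p = 0.343, and -0.214 without Taf4asKO replicate 1), without overlap. *Slc46a3* had 88 and 91 against 79 and 106, *Slc27a1* had 28 and 62 against 44 and 50, and *Slc33a1*, which brings acetyl-CoA into the endoplasmic reticulum, had 47 and 46 against 30 and 52. *Slc22a4*, a carrier of ergothioneine, had 6 and 20 against 22 and 25 in an intron (1.01 ± 0.50, adjusted p = 0.313). Its difference was 0.22 without control replicate 1 and 1.80 without control replicate 2. *Slco1a6* had 9 and 7 against 14 and 14 (0.75 ± 0.44, adjusted p = 0.389), and *Slc10a6* had 10 and 13 against 12 and 16. *Slc17a4*, the one carrier peak with a mean above 10 whose ratio of group means was beyond 2 on the deposited scale, had a log2 difference of -1.11 ± 0.51 (adjusted p = 0.281) and no CCAAT in its centre. Its difference was -0.61 without Taf4asKO replicate 2 and -1.61 without Taf4asKO replicate 1. *Slc23a4* and the second *Slc22a4* peak were below the minimum.

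Of the 14 carrier peaks without CCAAT in the centre, 10 lay beyond 1000 bases and 12 had a mean of at most 18.2. The other 2 were *Slc35f5* (mean 59.5) and the first *Slc7a5* peak (mean 21). Where a gene had several peaks, the one with the highest mean was the one closest to the start in *Slc43a2*, *Slc2a8*, *Slc45a4*, *Slc26a2*, *Slc9a3r1*, *Slc25a35*, *Slc25a44* and *Slc7a5*. In *Slc25a25* the strongest peak was the middle one, and in *Slc38a1*, *Slc8b1* and *Slc22a4* it was the one farther from the start.

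Other membrane transport genes were taken for comparison from lists. Carriers of the superfamily under other symbols, such as the mitochondrial pyruvate carrier, sideroflexins and the haem exporter *Flvcr1*, had 13 peaks of 8 genes among 46 (17.4%). Of their 10 tested peaks 0 passed, with 9 negative and a median of -0.35, where 0.948% of all 4746 tested peaks passed and 2554 were negative (median -0.04). ATP-driven transporters had 13 peaks of 10 genes among 88 (11.4%), of which 9 were tested and 0 passed (median -0.03). Genes of amino acid stress, glycolysis and metal handling, listed by name, had 16 peaks of 11 genes. This was 44.0% of 25 annotation entries, where a symbol can have more than 1 entry, against 14.6% of all protein-coding genes. Of the 16 peaks of this list 15 were tested and 0 passed (median -0.12). Among these, *Chac1*, a glutathione-degrading target of ATF4, had 117 and 111 in the controls and 72 and 69 in Taf4asKO (-0.69 ± 0.18, adjusted p = 0.106), and *Atf4* itself had 130 and 127 against 95 and 98 (-0.41 ± 0.16, adjusted p = 0.231). In the other direction, the peak 5130 bases from the start of *Sesn2*, a stress-induced gene, had 147 and 127 against 200 and 207 (0.57 ± 0.15, adjusted p = 0.110). These 3 genes were named after their values were seen, and the 3 lists share their control libraries with the carriers.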

How the data were processed

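NF-YA CUT&RUN was analysed in 2 control and 2 Taf4asKO libraries of cultured MuSCs. The 4 IgG libraries of the labels were not analysed here. The authors trimmed and aligned the read pairs (Trimmomatic 0.39 and STAR 2.7.11a per the submitters' notes) to mm10, removed duplicates (Picard 3.1.1) and spliced, multi-mapping, ribosomal and mitochondrial reads, called peaks per library against IgG with MACS, merged them into a common set and counted reads with featureCounts. The values deposited by the authors are a score, the reads per peak normalised with DESeq2 (1.36.0 per the submitters' notes) and rounded. The authors' own methods text names other versions of STAR, Picard and DESeq2. A read was worth less than the rounding unit in the Taf4asKO libraries, so whole reads could not be recovered there and no count model was run. They assigned peaks to the nearest gene start within 10000 bases, and their distances are used.

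The worth of a single read was derived from the gaps between values. For Taf4asKO replicate 1 the gaps allowed more than 1 solution, and the one nearest to a geometric mean of 1 was taken, so its reads are an estimate. Control and Taf4asKO values were fitted with limma 3.58.1 (R 4.3.3) as log2(value + 1), a scale that understates the change of low peaks, with a variance trend and Benjamini-Hochberg adjustment over all 4746 peaks whose mean reached 10. No exact test of 2 against 2 values can go below p = 0.333. Annotation was from GENCODE M21, in which all 67 carrier peaks had the same gene coordinates, and sequences were read from GRCm38.p6. Python 3.11.15 with pysam 0.24.0 was used. The alternatives were other scalings, minimums, pseudocounts, thresholds, weights and windows, the replicate number as a block, and leaving out each library. The members, groups, lists and tests were chosen with earlier results of these data known. Named are the 3 strongest peaks of each group, the 5 largest differences in either direction among peaks without overlap, genes with several peaks and the listed carriers. *Slc25a38*, *Slc25a47* and others outside this rule were named after their values were seen. The values of 1 further gene of the set are counted but not reported here. Wilson intervals cover counting error only.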

Additional observations from a re-analysis of the deposited data

How the results depend on the processing

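With all libraries kept, no carrier peak passed the adjusted p of 0.05 under any alternative except weighting by reads, where 1 of 52 did. It was the intron peak of *Slc22a4* (1.36, adjusted p = 0.0474). Weighting called 298 of all 4746 tested peaks, against 45 without weights. Without a minimum 0 of all 7196 peaks passed. Without weights the *Slc22a4* peak had 0.22 without control replicate 1 and 1.805 without control replicate 2. The replicate block gave 0 carrier calls and a median of 0.0947, as without it. Over all 4746 tested peaks it called 31, against 45 without it. The labels do not say what the numbers share, and deviations of same-numbered libraries correlated at -0.088. Equal totals moved the median of the carrier peaks to 0.2357 and centring on strong peaks to 0.3191. Leaving out libraries gave -0.072 (without Taf4asKO replicate 2) to 0.1929 (without Taf4asKO replicate 1). These fits leave 1 library in a group and called no peak of the whole series, so their calls cannot describe the carriers. Peaks gained or lost by fold numbered 3 of 52 with equal totals (2 higher), where 421 of all 4730 such peaks did. Centring gave 4 (all higher, *Slc17a4* lost), against 480 of all 4741. Without a minimum there were 3 of 67, against 1191 of all 7196. A ratio of 1.5 gave 13 of 52, against 1002 of all 4689. When both replicates had to pass there were 0, against 124 of all 4689. The peaks counted also changed with a library left out. Without control replicate 2 they included *Slc7a11*, *Slc22a4* and *Slc25a23* but not *Slc17a4*. Windows of 500 and 200 bases held 50.75% and 41.79% of the carrier peaks, in place of 64.18%, by their construction. The share with CCAAT was 77.61% in whole peaks and 70.15% in the central 100 bases. The cause of other changes was not tested.

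The sign held for 43 of the 52 tested peaks under every alternative that kept all libraries. Centring turned *Slc2a1* to 0.08, *Slc25a42* to 0.036, *Slc39a3* to 0.041, *Slc9a3r1* to 0.165, *Slc25a47* to 0.033 and *Slc4a7* to 0.012. Equal totals turned *Slc9a3r1* to 0.08. Weights turned *Slc25a44* to -0.016, *Slc2a4* to -0.061 and the second *Slc43a2* peak to -0.11. With each library left out it held for 40. The others ranged from -0.072 to 0.208 (*Slc1a4*), -0.084 to 0.707 (*Slc25a17*), -0.054 to 0.493 (*Slc25a33*), -0.111 to 0.176 (*Slc25a44*), -0.395 to 0.724 (*Slc27a1*), -0.212 to 0.401 (*Slc2a4*), -0.22 to 0.616 (*Slc30a6*), -0.616 to 0.158 (*Slc33a1*), -0.6 to 1.208 (*Slc35f6*), -0.252 to 0.333 (second *Slc43a2* peak), -0.178 to 0.242 (*Slc46a3*) and -0.271 to 0.144 (*Slc9a3r1*). Control replicate 2 had 111265 reads in peaks, which sets the coarse values of weak peaks there.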
